A study of Mus musculus with 6 samples.

Results

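The nuclear genes for subunits of the oxidative phosphorylation (OXPHOS) complexes were compared in peritoneal macrophages (PMs) of diseased-BWF1 and control mice. Although earlier results of these data were known, the genes were chosen by symbol, with a rule that uses no measured value. They are the protein-coding genes of mouse named as Nduf subunits of the A, B, C, S or V series, as Sdha to Sdhd, or with symbols that start with Uqcr, Cox4 to Cox8 or Atp5. Of 105 symbols of this form, 18 were pseudogenes and were left out, as were assembly factors. This left 87 genes, 85 of which had at least 1 transcript record among the 32875 genes with a record. Complex I was represented by 38 genes, complex II by 4, complex III by 8, complex IV by 20 and complex V by 17. Ndufa4 and Ndufa4l2 were placed with complex IV, because the NDUFA4 protein is now known as a subunit of that complex.

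The 5 OXPHOS complexes sit in the inner mitochondrial membrane. Complexes I to IV pass electrons from NADH and succinate to oxygen and, complex II apart, pump protons, and complex V (ATP synthase) uses the proton gradient to make ATP. Most subunits are encoded in the nucleus, and 13 are encoded in mitochondrial DNA. Resident and alternatively activated macrophages are known for their use of oxidative metabolism, whereas classical activation shifts macrophages towards glycolysis. The genes encoded in mitochondrial DNA had 0 records among the 13 symbols searched, so only the nuclear part of the complexes is described.

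RNA of cell-sorted PMs (F4/80+, CD11b+) was sequenced from 3 control and 3 diseased-BWF1 mice, with 1 library per mouse. Control mice were females of an NZW by BALB/c F1 cross, not susceptible to lupus, and were 33, 33 and 30 weeks old. Diseased-BWF1 mice were females of an NZB by NZW F1 cross and were 31, 31 and 34 weeks old. They had proteinuria and antibodies against double-stranded DNA, as the methods describe. No gene was deleted and no agent was given in either group. Disease and the parental strain that is not shared (NZB or BALB/c) change together between the groups and cannot be told apart. Levels are given as CPM, the counts on genes scaled to a common library total with TMM factors, which adjust for library composition. In bulk RNA, fewer cells of a type and less RNA per cell cannot be told apart.

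Libraries held 3629901 to 5003360 counts, and 3 counts, the limit that a count of 0 allows, corresponded to 0.652 to 0.889 CPM. Intervals and this floor cover counting error only. All 10 macrophage markers were measured, with a summed level of 37937 to 51122 CPM in control and 31703 to 37441 CPM in diseased-BWF1 mice, the highest in control 3. Of these markers, 6 were fitted lower in diseased-BWF1 mice. Cd68, Timd4 and Icam2 were lower at an unadjusted p under 0.05 by edgeR, and none passed the adjusted test. Over all genes tested, 7.57% had such a p with a lower level. B cell markers summed to 4.89 to 7.83 CPM in control and 1.58 to 4 CPM in diseased-BWF1 mice. T cell markers reached at most 2.99 and 3.25 CPM. Cd209a, a lectin of dendritic cells and macrophages, was lower in diseased-BWF1 mice past the test (55.2 ± 19.5 against 2.71 ± 1.85 CPM, SD, n = 3 each, edgeR adjusted p = 0.0117). Neutrophil markers summed to 2.61 to 4.56 CPM and 3.2 to 4.75 CPM, with Ly6g, Mpo and Retnlg at 0. Markers of mast cells and eosinophils, mesothelium and erythroid cells reached at most 2 CPM as a sum in any mouse. The part of these cell types in the results was not tested.

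Control 3 stood apart from the other control libraries. Its Spearman correlation with them across genes was 0.945 and 0.946, against 0.974 between controls 1 and 2. Of the 74 OXPHOS genes that passed the low-count filter, 64 were higher in control 3 than the mean of the other control mice, with a median difference of 0.23 in log2(CPM + 1), whereas the median over all genes tested was 0.02. In the other 5 mice the median difference of the OXPHOS genes from their group ranged from -0.14 to 0.03. In control 3 the difference was 0.25 for 47 genes with transcripts under 1000 bases and 0.14 for 12 genes with longer transcripts. Across these 59 genes, however, its Spearman correlation with transcript length was only -0.07. Values without control 3 are therefore given beside the summed level of each complex and the counts over all OXPHOS genes.

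**Figure D1:**
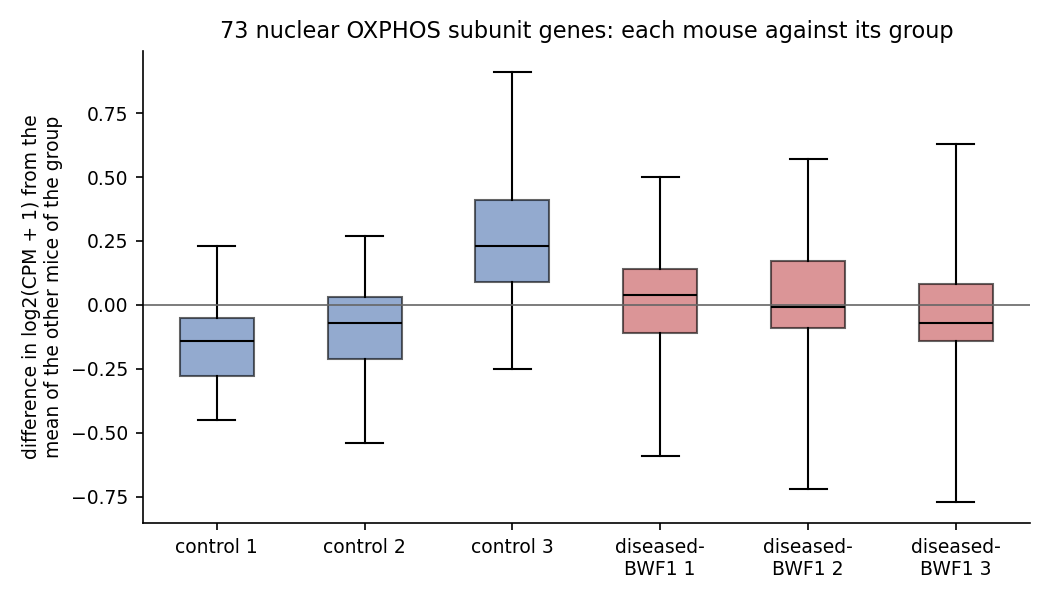
Difference of each mouse from the mean of the other mice of its group, in log2(CPM + 1), over 73 nuclear OXPHOS subunit genes (Ndufs5 not drawn). Lines mark the median, boxes the middle quartiles and whiskers the full range, and control 3 has the highest median.

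Ndufs5 was the OXPHOS gene with the largest difference, and its counts are given beside those of a copy with a near-identical coding sequence. Ndufs5 encodes an accessory subunit of complex I. It lies on the minus strand of chromosome 4 (GRCm38, chr4:123712710-123718186), and the processed pseudogene Ndufs5-ps on chromosome 16 (chr16:42955580-42956079) holds almost the same coding sequence. Over 318 aligned coding bases, 2 differed (99.4% identity), T81C and A105G, with the Ndufs5 base first, the Ndufs5-ps base last and positions counted from 1 at the first base of the start codon. Reads were 75 bases long, and 145 of the 244 windows of that length in the aligned part were identical in both. Over all annotated transcripts of Ndufs5 pooled, untranslated parts included, 146 of 928 sequences of 75 bases (15.7%) also occurred in the copy. That share needs all 75 bases to match and covers more sequence than the transcript counted. The 1 record counted for Ndufs5 had a length of 525 bases, and the aligned coding part was 318 bases. The stretch with both differences, bases 61 to 180 in exon 2 of Ndufs5 (chr4:123715900-123716019, minus strand) and its match in Ndufs5-ps (chr16:42955691-42955810, plus strand), is shown because it holds both differences of the coding sequence, in capitals:
Ndufs5: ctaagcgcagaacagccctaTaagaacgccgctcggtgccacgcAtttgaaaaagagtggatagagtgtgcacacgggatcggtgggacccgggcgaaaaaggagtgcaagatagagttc
Ndufs5-ps: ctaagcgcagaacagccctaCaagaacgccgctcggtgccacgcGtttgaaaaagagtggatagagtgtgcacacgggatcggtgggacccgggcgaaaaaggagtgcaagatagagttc

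Ndufs5 had 35, 34 and 14 counts in control mice and 0, 0 and 2 counts in diseased-BWF1 mice, so the groups did not overlap. In CPM this was 7.61, 9.23 and 4.25 in control against 0, 0 and 0.527 in diseased-BWF1 mice, all of the latter under the floor of 3 counts. The summed ratio of the groups was 2.42% of control (exact 95% interval 0.288% to 9.01%, counting error only). The difference passed the test over all genes (log2 fold change -5.11, SE 0.81, edgeR quasi-likelihood test with Benjamini-Hochberg adjusted p = 0.0389, fold of the fit dependent on the prior count). An exact two-sided permutation test gave p = 0.1, the smallest that 3 mice against 3 allow.

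Ndufs5-ps, by contrast, had 62, 32 and 58 counts in control and 66, 52 and 73 in diseased-BWF1 mice. Its groups overlapped (13.3 ± 4.47 and 16.5 ± 2.69 CPM, SD, n = 3 each, edgeR adjusted p = 0.685). The sum of both genes was 97, 66 and 72 counts in control and 66, 52 and 75 in diseased-BWF1 mice. For the sum the groups overlapped as well, and the difference did not pass the test (20.3 ± 2.1 against 16.7 ± 2.96 CPM, log2 fold change -0.28, SE 0.19, edgeR adjusted p = 0.592). Thus Ndufs5 made up 36.1%, 51.5% and 19.4% of the pair's counts in control mice and 0%, 0% and 2.67% in diseased-BWF1 mice. How the reads were divided between the 2 sequences was decided before deposit, and the part of this division in the difference was not tested. The call of Ndufs5 alone was also lost without any 1 of the 6 mice (adjusted p = 0.0637 to 0.138 by edgeR, 0.0637 without control 3).

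**Figure D2:**
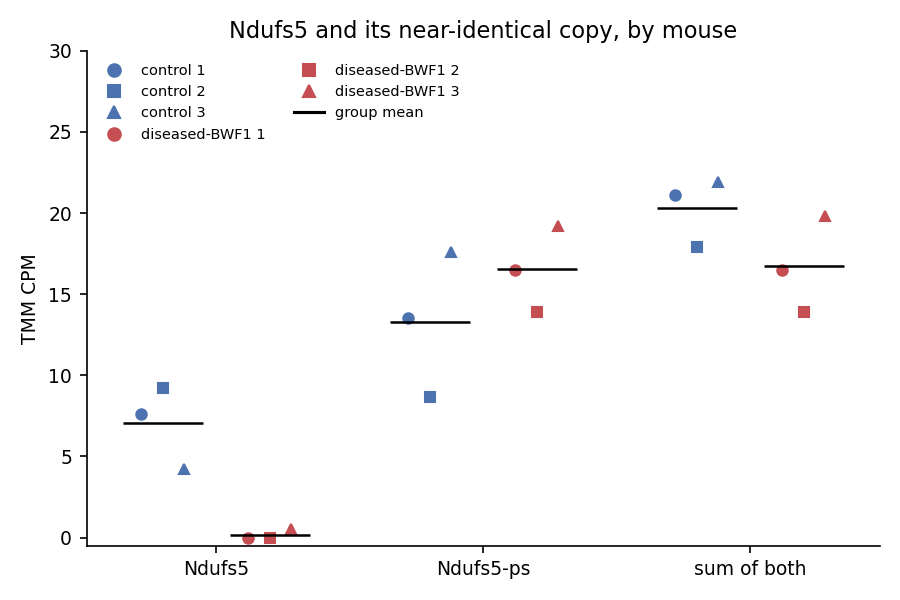
Level in CPM (y axis) of Ndufs5, of Ndufs5-ps and of their sum in each mouse, with the group mean as a line. The groups are apart for Ndufs5 (7.03 and 0.176 CPM on average) and overlap for Ndufs5-ps and for the sum.

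Outside Ndufs5, OXPHOS genes differed little between the groups, and most of the differences had the same sign. After the filter on low counts, 74 of the 87 genes and 10502 genes in all were tested. A gene counted as called when its adjusted p was below 0.05 and its level differed by 1.5-fold or more. Ndufs5 was the 1 OXPHOS gene called (1.35% of the 74), where 1.22% of all genes were called, so the share was near the background. DESeq2's Wald test called 3.55% of all genes and again Ndufs5 alone of the 74. In the direction of lower levels in diseased-BWF1 mice, 0.819% of all genes were called, and 0.4% in the other direction. Log2 fold changes of the other 73 genes ranged from -0.46 to 0.19, with SEs of 0.11 to 0.32. A fitted difference of 1.5-fold or more was found for 14.9% of all genes but for 1 of the 74.

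The fitted level was below control for 67 of the 74 genes (90.5%), against 49.2% of all genes tested. Their median log2 fold change was -0.19, that is 88% of the control level, against 0.0053 over all genes. With DESeq2's Wald test 65 of 74 were fitted lower, and without any scaling beyond the library total 62. When control 3 was left out, 53 were fitted lower and 21 higher, with a median of -0.12, and the sign of the difference was then less uniform. Transcripts under 1000 bases had a median of -0.23 (47 genes) and longer ones -0.12 (12 genes), and without control 3 these medians were -0.13 and -0.07.

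An unadjusted p under 0.05 was found for 9 of the 74 genes, all lower in diseased-BWF1 mice (12.2%), where 7.57% of all genes had such a p with a lower and 5.62% with a higher level. None of these other than Ndufs5 passed the adjustment (edgeR adjusted p = 0.327 to 0.374). The count of 9 was 1 with DESeq2's Wald test, 1 without scaling beyond the library total and 3 without control 3, where 7.37% of all genes had such a p with a lower level. Of the 74 genes, 18 (24.3%) had every diseased-BWF1 mouse below every control mouse, against 11.4% of all genes. Sdhb was the 1 gene with every diseased-BWF1 mouse above every control mouse, against 9.45% of all genes. Without control 3 these counts were 19 (25.7%, all genes 17.2%) and 2 (2.7%, all genes 16.5%).

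**Figure D3:**
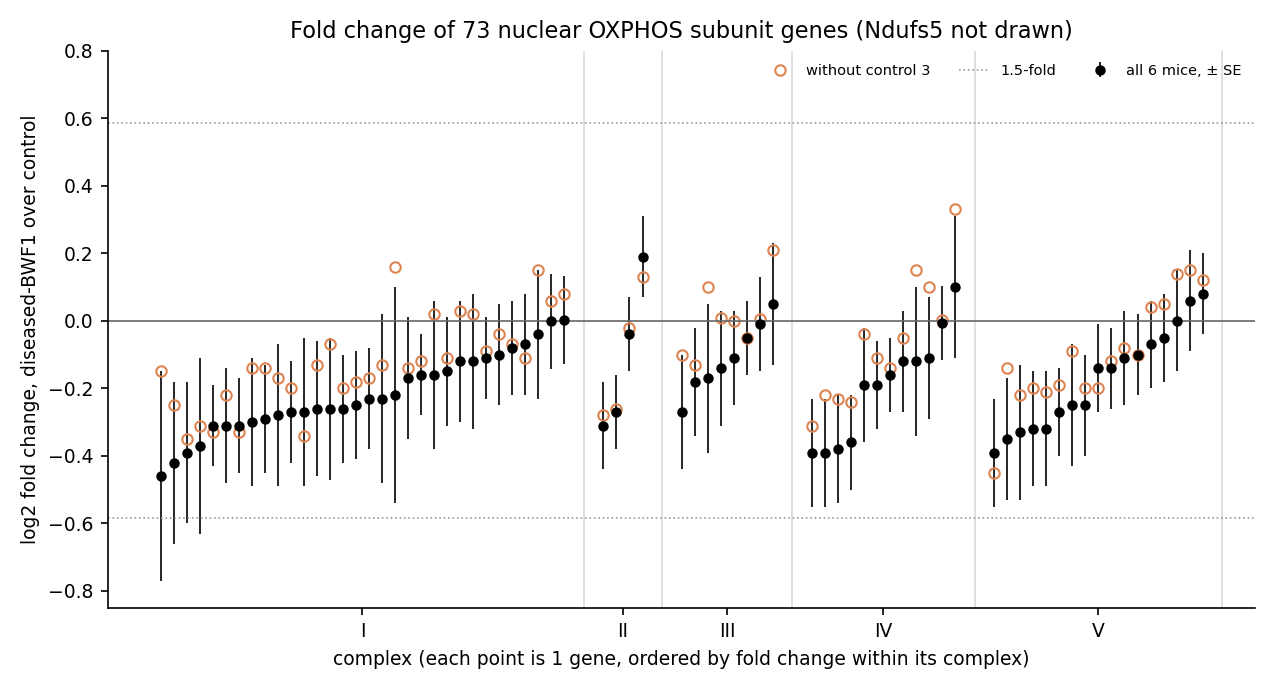
Log2 fold change of diseased-BWF1 over control mice (y axis) for 73 nuclear OXPHOS subunit genes by complex, as filled points with SE for all 6 mice and open points without control 3. Dotted lines mark a fold change of 1.5, which no filled point reaches, and 21 genes lie above 0 without control 3.

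Complex I, the NADH dehydrogenase, had the lowest summed level relative to control. Its genes summed to 930, 987 and 1116 CPM in control and 876, 884 and 859 CPM in diseased-BWF1 mice (1011 ± 95.5 against 873 ± 12.8 CPM, SD, n = 3 each). Every diseased-BWF1 mouse lay below every control mouse, at 86.4% of the control mean, or 91.1% without control 3. Of 33 tested genes, 32 were fitted lower, with a median log2 fold change of -0.25. The 7 core subunits, which carry the flavin and the iron-sulfur clusters, were all fitted lower, with a median of -0.25 and a sum of 289, 328 and 346 CPM against 286, 267 and 276 CPM (86% of control, 89.5% without control 3). Accessory subunits, which surround this core, had 25 of 26 tested genes fitted lower, a median of -0.24 and a summed level of 86.6% of control (91.9% without control 3). Core and accessory genes thus had nearly equal medians.

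Among the core subunits, Ndufs1, the largest iron-sulfur subunit of the electron-input arm, had 58.9, 69.2 and 61.7 CPM in control and 51.7, 52.8 and 48.2 CPM in diseased-BWF1 mice. Its groups did not overlap (log2 fold change -0.31, SE 0.12, edgeR adjusted p = 0.327). Ndufs3, another core subunit of this arm, had 34.8, 37.2 and 48.3 CPM against 33, 32.3 and 32.7 CPM. Here the groups were separated by less than 2 CPM and control 3 was the highest. Ndufs8, which carries iron-sulfur clusters near the quinone site, had the lowest fitted value of the core genes (22.2, 25.2 and 32.5 CPM against 20, 14.9 and 24.8 CPM, log2 fold change -0.42, SE 0.24), with overlapping groups. Without control 3 the log2 fold change of Ndufs8 was -0.25. Ndufv1, the flavin-binding subunit, had a log2 fold change of -0.0015 (39.3 ± 2.83 against 39.2 ± 4.31 CPM), and 0.06 without control 3.

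Ndufa9, an accessory subunit near the quinone site, had 37.4, 42.1 and 37.7 CPM in control and 35.5, 29.9 and 29.3 CPM in diseased-BWF1 mice. Ndufb9, an accessory subunit of the membrane arm, had 28.9, 33.7 and 35.9 CPM against 24.5, 28.3 and 28.7 CPM. For both genes each diseased-BWF1 mouse lay below each control mouse (log2 fold change -0.31, SE 0.14, and -0.27, SE 0.15), and neither passed the adjusted test. Ndufc1 had 12.2, 12.5 and 15.2 CPM against 11.7, 12 and 8.96 CPM. Ndufc2, which like Ndufc1 belongs to the membrane arm, had 20.9, 25 and 25.5 CPM against 19.7, 18.9 and 20.8 CPM. Groups did not overlap for these 2 genes, but the highest diseased-BWF1 mouse was within 0.1 CPM of the lowest control mouse for Ndufc2. Apart from Ndufs5, Ndufb4 had the lowest fitted value of the complex (15.9, 13.6 and 25.5 CPM against 10.5, 11.7 and 17.7 CPM, log2 fold change -0.46, SE 0.31), with overlapping groups and control 3 the highest. Without control 3 the log2 fold change of Ndufb4 was -0.15. Ndufa10 had the highest fitted value, with a log2 fold change of 0.0019 (49.1 ± 4.97 against 49.2 ± 2.1 CPM).

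Complex II, the succinate dehydrogenase, has 4 genes and no subunit from mitochondrial DNA. Its genes did not share a direction. Sdhc and Sdhd encode the membrane anchors of the complex. Sdhc had 62.6, 61.1 and 62.9 CPM in control and 54, 48.8 and 52.2 CPM in diseased-BWF1 mice (log2 fold change -0.27, SE 0.11, edgeR adjusted p = 0.362). Sdhd had 84, 67.6 and 80.5 CPM against 62, 61.6 and 63 CPM (log2 fold change -0.31, SE 0.13, edgeR adjusted p = 0.341). In both anchors the groups did not overlap and the values changed little without control 3 (-0.26 and -0.28). Sdhb, the iron-sulfur subunit, had 50.7, 52.1 and 44.4 CPM against 59.2, 52.8 and 56.4 CPM. Its groups thus did not overlap in the other direction, with 52.1 and 52.8 CPM in the nearest mice. The log2 fold change of Sdhb was 0.19 (SE 0.12, edgeR adjusted p = 0.566), and 0.13 (SE 0.11) without control 3. Sdha, the flavin subunit, had 179, 182 and 189 CPM against 184, 176 and 173 CPM, with overlapping groups. The summed level of the complex was 376, 362 and 376 CPM in control and 360, 339 and 345 CPM in diseased-BWF1 mice. The groups were thus apart by little (372 ± 8.1 and 348 ± 10.6 CPM, 93.6% of control, 94.2% without control 3).

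Complex III, the cytochrome bc1 complex, had 8 tested genes, 7 of which were fitted lower (median -0.13). No gene had an unadjusted p under 0.05 or groups that did not overlap. The sum was 392, 372 and 486 CPM in control and 386, 410 and 361 CPM in diseased-BWF1 mice, and these overlapped. Relative to control the level was 92.7%, but 101% without control 3, and the median log2 fold change was then 0.0033. Uqcrb, a small subunit at the quinone-binding site, had the lowest fitted value (44.2, 39.6 and 57.7 CPM against 41.5, 37.9 and 38 CPM, log2 fold change -0.27, SE 0.17). Uqcrfs1, the Rieske iron-sulfur protein, had the highest (46.5, 41 and 58.9 CPM against 47.5, 58.7 and 45.6 CPM, 0.05, SE 0.18). In both genes, the groups overlapped and control 3 was the highest mouse of its group.

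Complex IV, the cytochrome c oxidase, had 12 tested genes, and 11 were fitted lower (median -0.18). Its sum was 829, 839 and 1108 CPM in control and 820, 889 and 820 CPM in diseased-BWF1 mice, with overlap. The level was 91.1% of control and 101% without control 3, where the median was -0.08. Of the 9 OXPHOS genes with an unadjusted p under 0.05, 4 belonged to this complex. Ndufa4 had 60, 60 and 76 CPM in control and 53.5, 52 and 47.2 CPM in diseased-BWF1 mice. Cox7a2 had 40.9, 39.4 and 47.1 CPM against 29.2, 37.9 and 29.8 CPM. The other two, Cox6b1 and Cox6a1, are structural subunits of the ubiquitous form of the enzyme.

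Cox6b1 had 62.6, 67 and 89 CPM in control and 55, 57.9 and 53.8 CPM in diseased-BWF1 mice, and Cox6a1 had 63.1, 67.9 and 87.2 CPM against 62.5, 52 and 52.5 CPM. All 4 genes were highest in control 3, and their groups did not overlap. Their log2 fold changes were -0.36 (SE 0.14) for Ndufa4, -0.39 (SE 0.16) for Cox7a2, -0.39 (SE 0.16) for Cox6b1 and -0.38 (SE 0.16) for Cox6a1. Without control 3 these were -0.24, -0.31, -0.22 and -0.23. Cox5b, a subunit on the matrix side, had 52.2, 55.1 and 55.6 CPM against 45.7, 50.7 and 49 CPM, without overlap (log2 fold change -0.16, SE 0.11). The catalytic subunits of complex IV are encoded in mitochondrial DNA and were not measured.

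The subunits of complex IV with the highest levels per transcript length did not differ in this way. Cox4i1, needed for assembly of the complex, had 123, 128 and 183 CPM in control and 125, 145 and 132 CPM in diseased-BWF1 mice, so that control 3 alone lay above every other mouse. Its log2 fold change was -0.11 (SE 0.18), and 0.10 without control 3. Cox7a2l, a gene of the Cox7a family that takes part in respiratory supercomplexes, had 173, 175 and 263 CPM against 189, 259 and 207 CPM (log2 fold change 0.10, SE 0.21). Without control 3 its value was 0.33 (SE 0.16), and both of the other control mice then lay below all diseased-BWF1 mice. About 10.4% of the 75-base sequences of Cox7a2l also occur in another annotated gene, Gm6969, so part of its reads could be shared. Such shares were also found for genes fitted lower in other complexes. They were 17.2% for Ndufb4, 16.7% for Uqcrb, 14.6% for Atp5h, 13.4% for Ndufb9 and 11.7% for Ndufs3. Among the genes with an unadjusted p under 0.05, Ndufs5 apart, Cox6a1 alone had such a share (4.58%). The part of shared reads in these values was not tested.

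**Figure D4:**
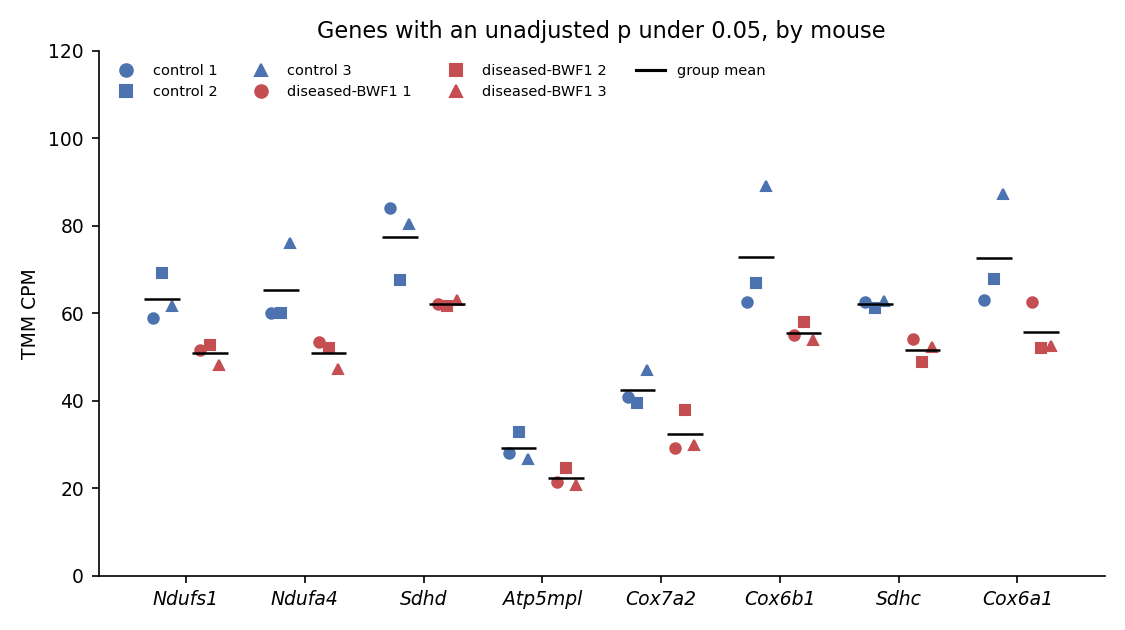
Level in CPM (y axis) in each mouse for the 8 genes other than Ndufs5 with an unadjusted p under 0.05, with group means as lines. The groups do not overlap for any of the 8, and control 3 (triangle) is the highest control mouse for Ndufa4, Cox7a2, Cox6b1, Sdhc and Cox6a1.

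Complex V, the ATP synthase, had 17 tested genes and 14 were fitted lower (median -0.14, or -0.12 without control 3). Its summed level was 1624, 1675 and 1838 CPM in control and 1598, 1539 and 1539 CPM in diseased-BWF1 mice. The groups did not overlap, and diseased-BWF1 mice were at 91% of control, or 94.5% without control 3. The catalytic F1 part, 5 genes, had a median log2 fold change of -0.05, with 3 genes fitted lower, and a summed level of 93.6% of control (95.7% without control 3). Within it, Atp5a1, the alpha subunit, had 441, 438 and 459 CPM against 421, 402 and 390 CPM, without overlap (log2 fold change -0.14, SE 0.12). Atp5b, the catalytic beta subunit, had 347, 372 and 358 CPM against 321, 332 and 353 CPM, with overlap (-0.10, SE 0.12). Atp5e, the epsilon subunit, had the highest fitted value of the complex (41.8 ± 3.27 against 44.2 ± 1.53 CPM, 0.08, SE 0.12).

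Outside F1, the genes of complex V encode the membrane part, the peripheral stalk and associated small subunits. Atp5mpl, a small proteolipid of the membrane part, had 28.1, 32.8 and 26.7 CPM in control and 21.5, 24.5 and 20.8 CPM in diseased-BWF1 mice (log2 fold change -0.39, SE 0.16, edgeR adjusted p = 0.344). Its groups did not overlap, control 3 was the lowest control mouse, and its value without control 3 was -0.45. Atp5h, subunit d of the peripheral stalk, had 79, 74.9 and 90.2 CPM against 73.2, 65.1 and 63.5 CPM. Atp5md, a small subunit of the membrane part, had 21.3, 18.2 and 24.3 CPM against 17.2, 16.8 and 17.1 CPM. In both genes the groups did not overlap (log2 fold change -0.27, SE 0.13, and -0.32, SE 0.17), and neither passed the adjusted test. Whether the F1 genes differ from these genes was not tested.

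**Figure D5:**
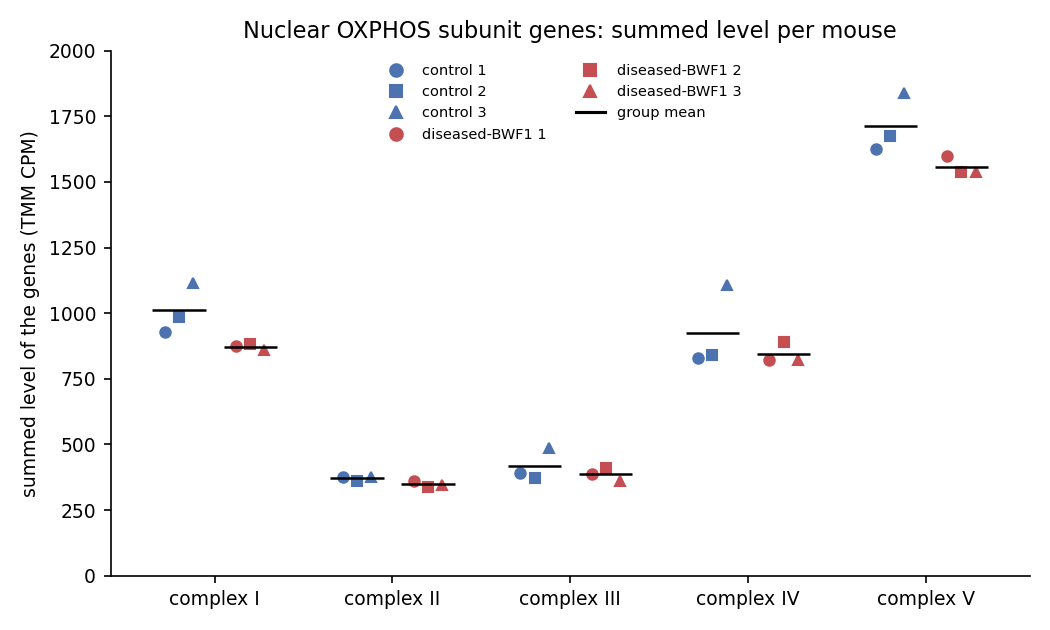
Summed level of the genes of each complex in CPM (y axis, from 0) for each mouse, with group means as lines. The groups are apart for complexes I, II and V and overlap for complexes III and IV. In complex II the nearest mice of the groups are at 362 and 360 CPM. Control 3 (triangle) is the highest mouse in complexes I, III, IV and V.

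Subunit c, which forms the rotor ring, is made from 3 genes that encode the same mature protein. Atp5g2 held 40.9%, 38.4% and 45.9% of their summed CPM in control and 43.5%, 49.6% and 41.7% in diseased-BWF1 mice. Atp5g3 held 44%, 46.1% and 38.1% against 41.7%, 36.3% and 42.7%. Atp5g1 held 14.1% to 15.9% in every mouse. The shares of all 3 genes overlapped between the groups, and their log2 fold changes were 0.06 (Atp5g2), -0.14 (Atp5g3) and -0.11 (Atp5g1), with SEs of 0.13 to 0.15. These shares are of counts, not corrected for transcript length, and 35.8% of the 75-base sequences of Atp5g2 also occur in the annotated gene Gm10175.

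For the complex IV subunits that have alternative forms in other tissues, PMs held almost only counts of the common form. Over the 6 mice, Cox4i1 had 3183 counts and Cox4i2, its lung-rich and oxygen-regulated form, 19, which is 0.593% of the pair (exact 95% Clopper-Pearson interval 0.358% to 0.925%). Cox6b2, the testis form, held 1.61% (1.03% to 2.38%) beside Cox6b1, and Cox7a1, the heart and muscle form, 0.922% (0.399% to 1.81%) beside Cox7a2. Cox6a2, the muscle form, had 1 count against 1471 of Cox6a1. Cox7b2, Cox8b and Ndufa4l2 had 0 counts beside 1083 of Cox7b, 1522 of Cox8a and 1335 of Ndufa4, with upper interval bounds of 0.34%, 0.242% and 0.276%. None of the tissue forms reached the filter on low counts, so none was tested between the groups.

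The 13 genes that were not tested are accounted for by their counts. Ndufb1 and Ndufb4c had no record. Ndufb4b, Cox7b2, Cox8b, Cox8c and Ndufa4l2 had a record with 0 counts in every mouse. Another 6 had counts in some mice, with 0 to 7 per mouse for Ndufa13, 5 to 10 for Ndufb2, 1 to 6 for Cox4i2, 0 to 1 for Cox6a2, 1 to 8 for Cox6b2 and 0 to 3 for Cox7a1. Ndufa13 and Ndufb2 encode complex I subunits that every cell with this complex uses. They had 20 and 46 counts over the 6 mice, and for these 2 genes a low count may be a failed estimate of the level.

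Single genes were ranked by level per kilobase of transcript, for the 59 tested genes whose record could be paired with a transcript of typical length for the gene. Short transcripts lose fragments, so these levels understate the shortest genes. The median over all 6 mice was 34.8 CPM per kb for 27 genes of complex I, 66.1 for 5 of complex III, 99.6 for 12 of complex IV and 91.4 for 13 of complex V. Complex II had values for Sdhb (46.1 CPM per kb) and Sdhd (56.7 CPM per kb) alone. The highest levels were those of Cox7a2l (196 CPM per kb), Cox4i1 (187), Atp5b (181) and Atp5a1 (172). These neighbours lay within the spread between control mice, with an SD of 47.7 CPM per kb for Cox7a2l and 44.2 for Cox4i1. In complex III, Uqcrh, the hinge protein, was highest (147) and Uqcrfs1 lowest (36.5), and in complex I Ndufa1, needed for assembly of the membrane arm, was highest (74.6). The value of Ndufs5 (6.86) was lower than that of any other gene ranked, but it averages 13.4 CPM per kb in control and 0.335 in diseased-BWF1 mice and leaves out the counts given to Ndufs5-ps. Atp5k (41.7) and Cox7b (47.2) were the lowest tested genes of complexes V and IV.

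The promoters of OXPHOS genes are known for sites of nuclear respiratory factor 1 (NRF-1), GABP and YY1. In RefSeq promoters of GRCm38, 250 bases before to 50 bases after each gene start, 62 of the 74 tested genes had an entry, with 67 promoters in all. Both strands were searched, and a match is a run of letters and not a measured site. The NRF-1 motif (GCGCA, any base, GCGC) occurred in 26.9% of these promoters, in 10.8% of the promoters of the other genes tested and in 4.6% of all promoters. The GABP motif CCGGAAG occurred in 25.4%, 19.1% and 8.86%, and the YY1 motif (AA, any base, ATGGCGG) in 8.96%, 3.57% and 1.36%. Some promoters held more than 1 of these motifs. Genes with the NRF-1 motif had a median log2 fold change of -0.23 (17 genes) and those without it -0.17 (45 genes). The corresponding medians were -0.29 and -0.15 for GABP (17 and 45 genes), and -0.24 and -0.17 for YY1 (6 and 56 genes). All these medians include control 3, and the 17 genes with the NRF-1 motif include Ndufs5. Whether genes with and without a motif differ was not tested.

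Upstream stretches of the called gene Ndufs5 and of Cox6a1 and Sdhd are shown with the NRF-1 motif in capitals. Of the 9 genes with an unadjusted p under 0.05, these 3 were found with that motif. Ndufs1, Ndufa4, Sdhc, Cox7a2, Cox6b1 and Atp5mpl were not among the genes found with it. All 3 genes shown are read from the minus strand, and the stretches lie at chr4:123718250-123718309, chr5:115349041-115349100 and chr9:50603894-50603953 (GRCm38). The motif starts 98, 117 and 79 bases before the gene start, and Cox6a1 holds another match 162 bases before its start:
Ndufs5: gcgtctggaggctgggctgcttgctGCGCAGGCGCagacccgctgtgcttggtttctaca
Cox6a1: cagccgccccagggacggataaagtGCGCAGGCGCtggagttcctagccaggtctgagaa
Sdhd: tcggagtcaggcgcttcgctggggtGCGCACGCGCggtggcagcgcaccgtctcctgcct

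Other genes of mitochondrial energy metabolism were read from lists of the pathway in the same fit, where 49.2% of all genes were fitted lower, 1.22% were called and 7.57% had an unadjusted p under 0.05 with a lower level. Values without control 3 were not computed for these lists. Among 48 tested assembly factors of the OXPHOS complexes, 28 were fitted lower and none was called (median -0.10), with 2 lower at an unadjusted p under 0.05, Foxred1 and Coa3, a share below that of all genes. Of 14 genes of the TCA cycle, 11 were fitted lower (median -0.08), with Idh3g and Suclg1 at an unadjusted p under 0.05. Of 15 genes of electron carriers and coenzyme Q synthesis, 10 were fitted lower (median -0.16), with Coq8a at such a p. Regulators of mitochondrial biogenesis had 3 of 12 tested genes fitted lower and a median of 0.10, and none had an unadjusted p under 0.05.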

How the data were processed

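Sorted PMs of 3 control and 3 diseased-BWF1 mice, grouped by their labels, were measured by RNA-seq. The authors prepared stranded libraries, sequenced them as paired reads of 75 bases and deposited estimated counts per RefSeq transcript record, as whole numbers without normalization, in 1 file per mouse. The submitters' processing notes name Salmon 0.8.0, DESeq2 and the build GRCm38.p6, and how the estimates were made whole is not given in the sources used here. Salmon divides reads between similar transcripts, which bears on genes with near-identical copies.

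Of 107193 records, 45749 matched the RefSeq gene table (GRCm38.p6) in the same version and 40709 in another version. Counts were summed per gene over all matched records, and the 20735 unmatched records were left out. Genes held 89.1% to 93% of the counts. Genes were filtered with filterByExpr (minimum count 10), scaled with TMM (factors 0.972 to 1.03) and compared with edgeR 4.0.16 (quasi-likelihood test, R 4.3.3), with Benjamini-Hochberg adjustment over 10502 genes and no covariate. Calls needed an adjusted p below 0.05 and a difference of 1.5-fold or more, the thresholds of the study's methods. Errors are SDs over mice, and SEs come from the fit. Each group has 3 separate mice, and no 2 libraries were duplicates. Exact permutation tests of single genes cannot go below p = 0.1. Complex sums, medians and list counts have no test. Transcript lengths and shared 75-base sequences came from GENCODE vM21 (GRCm38), and lengths over 1.5 times the median of a gene's coding transcripts were not used.

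The genes and the lists were chosen with earlier results of these data known. Genes named in the text were those called, with an unadjusted p under 0.05 or with groups that did not overlap, in each complex those with the highest and lowest fold change and level, the tissue forms, the subunit c genes and the genes below the filter, and, outside the OXPHOS genes, called genes. A few genes named by this rule are left unreported. Other genes at an unadjusted p under 0.05 were named after their values were seen. Alternatives were DESeq2 1.42.0, other scalings and filters, limma-voom (limma 3.58.1), age, a replicate block, each mouse left out, curated records alone and single records. The sum of Ndufs5 with Ndufs5-ps, and complex sums with a mouse left out, were added after seeing the data. The code was tested on simulated data.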

Additional observations from a re-analysis of the deposited data

How the results depend on the processing

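The median log2 fold change of the OXPHOS genes stayed below 0 under every alternative, from -0.21 to -0.14 with other tests, scalings, filters or records and from -0.25 to -0.12 with a mouse left out. With a mouse left out, the medians ranged from -0.34 to -0.14 in complex I, from -0.19 to 0.0033 in complex III and from -0.25 to -0.08 in complex IV, the higher end each time without control 3. All genes called numbered 128, and 373 with DESeq2, 259 without a filter, 84 with at least 10 counts in every library, 16 with curated records, 2 with single records and 21 to 56 with a mouse left out. OXPHOS genes called fell from 1 to 0 with at least 10 counts in every library, where Ndufs5 was not tested, and with curated records, single records, the sum with Ndufs5-ps and each mouse left out. OXPHOS genes with an unadjusted p under 0.05 numbered 9, but 1 with DESeq2, 1 without scaling, 3 as single records (of 86 tested) and 2 to 7 with a mouse left out. The log2 fold change of Ndufs5 was -5.10 with curated records (adjusted p = 0.146 by edgeR), -5.09 as a single record (0.406), -0.28 as the sum with Ndufs5-ps (0.592) and -7.78 to -4.58 with a mouse left out, and none of these passed the threshold. Calls among other genes of the pathway fell from 1 to 0 without scaling, with age, with limma-voom, with curated records and with each mouse left out. With a mouse left out, signs were reversed for some of the genes followed through the alternatives. Cox7a2l ranged from -0.03 to 0.33, below 0 at -0.0051 without control 1 and -0.03 without diseased-BWF1 2. Cox4i1 (-0.22 to 0.10) and Uqcrh (-0.31 to 0.10) were above 0 without control 3. Atp5g2 (-0.03 to 0.17) was below 0 without diseased-BWF1 2. Ndufv1 and Cox8a, fitted near 0 with all mice, were at 0.06 and 0.0013 without control 3. Over all 74 OXPHOS genes tested, 7 were fitted higher with all mice and 21 without control 3, so other genes changed sign too. Apart from the left-out mouse and the smaller set tested, the cause was not tested. Depth limits genes of a few counts per mouse, such as Ndufs5.

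Replicate numbers are shared by the groups in the labels only. Deviations of same-numbered mice from their group means correlated at 0.118, 0.00554 and 0.157 across genes, and control 2 correlated best with diseased-BWF1 1, so the numbers were not taken to pair mice. With the replicate block, 38 genes were called, 0 OXPHOS genes and 0 other genes of the pathway, 2 OXPHOS genes had an unadjusted p under 0.05, and Ndufs5 had a log2 fold change of -5.06 (adjusted p = 0.111 by edgeR).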

Other observations

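Some OXPHOS genes with several transcript records had 1 record whose counts varied between mice more than those of the gene. For Cox4i1, the record with the most counts had 549, 459 and 484 counts in control and 487, 524 and 499 in diseased-BWF1 mice. The other record of the gene had 18, 11 and 119 counts against 15, 18 and 0, so that control 3 was the highest mouse in that record. These counts are not scaled to the library total, and control 3 had the smallest total (3629901 counts). Relative to the other control mice, its level in the first record was therefore higher than the counts show. For Atp5j, a coupling factor of the ATP synthase, 1 record had 46, 0 and 67 counts against 12, 11 and 0. In Ndufs8, 1 record had 0 counts in every control mouse and 11, 3 and 3 counts in diseased-BWF1 mice, and another had 14, 12 and 9 against 0, 3 and 6. Of 123 records of OXPHOS genes, 86 could be tested on their own by edgeR, of which 0 were called, 74 were fitted lower and 3 had an unadjusted p under 0.05. These records were named after their values were seen, and how reads were divided between records of a gene was not tested.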
